A study of Homo sapiens with 6 samples.

Results

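The regions described here are the SMARCA4 binding sites at 9 genes for abundant long non-coding RNAs (lncRNAs), NEAT1, MALAT1, SNHG1, GAS5, NORAD, H19, MEG3, TUG1 and SNHG12. The genes were chosen by name with the peaks of this list already known, and their peaks were then selected on position: every peak sharing at least 1 bp with the gene span of GENCODE (hg19) plus 5 kb on each side. This gave 25 of the 28265 peaks in all, at 7 of the 9 genes. All counts at these genes are therefore a description, and no test was made.

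The cells were K562, an established human line from chronic myelogenous leukaemia. There were 3 SMARCA4 ChIP libraries and 3 input libraries, all from cells cross-linked first for 30 min in 2 mM disuccinimidyl glutarate (DSG), followed by 10 min in 1% formaldehyde, with fragments of 150 to 400 bp. The deposited list holds the regions that were called in at least 2 of the 3 ChIP replicates, as positions without a height or score, so each gene has a single pooled value with no error between replicates. The series text calls these replicates technical and the study's own text calls them biological, so whether a region had to recur in separate cultures is not settled here.

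SMARCA4, also named BRG1, is the ATPase of SWI/SNF chromatin remodelling complexes, which slide and evict nucleosomes at promoters and enhancers. NEAT1 RNA is the scaffold of paraspeckles and MALAT1 RNA is a component of nuclear speckles, while SNHG1, GAS5 and SNHG12 carry small nucleolar RNAs (snoRNAs) in their introns. NORAD binds Pumilio proteins in the cytoplasm, and H19 and MEG3 are imprinted genes expressed from the maternal allele.

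The promoters of NEAT1, MALAT1 and TUG1 are shown first, since the first 2 lay under wide peaks, of 10019 and 3472 bp, and the last lay far from any. Each is read from hg19 on the strand of the gene, from 250 bases before to 50 bases after the start of the canonical transcript. Capitals mark GGGCGG, the letters bound by SP and KLF factors, on either strand, or a G-quadruplex (G4) motif, meaning 4 runs of at least 3 G separated by 1 to 7 bases, searched on both strands. The NEAT1 promoter lies at chr11:65190019-65190318 on the plus strand, that of MALAT1 at chr11:65264861-65265160 on the plus strand, and that of TUG1 at chr22:31365001-31365300 on the plus strand.

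NEAT1 promoter: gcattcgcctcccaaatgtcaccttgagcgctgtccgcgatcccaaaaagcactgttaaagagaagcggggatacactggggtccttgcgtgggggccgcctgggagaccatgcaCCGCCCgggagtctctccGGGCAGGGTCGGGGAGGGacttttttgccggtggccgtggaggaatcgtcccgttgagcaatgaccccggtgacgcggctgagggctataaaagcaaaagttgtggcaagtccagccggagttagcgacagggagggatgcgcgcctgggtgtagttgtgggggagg

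MALAT1 promoter: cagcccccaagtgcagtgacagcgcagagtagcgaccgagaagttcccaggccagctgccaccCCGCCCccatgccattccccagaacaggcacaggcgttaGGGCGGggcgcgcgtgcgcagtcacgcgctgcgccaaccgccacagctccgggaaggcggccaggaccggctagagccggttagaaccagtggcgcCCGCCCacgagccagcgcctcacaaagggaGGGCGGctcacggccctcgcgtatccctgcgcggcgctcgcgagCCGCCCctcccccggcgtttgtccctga

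TUG1 promoter: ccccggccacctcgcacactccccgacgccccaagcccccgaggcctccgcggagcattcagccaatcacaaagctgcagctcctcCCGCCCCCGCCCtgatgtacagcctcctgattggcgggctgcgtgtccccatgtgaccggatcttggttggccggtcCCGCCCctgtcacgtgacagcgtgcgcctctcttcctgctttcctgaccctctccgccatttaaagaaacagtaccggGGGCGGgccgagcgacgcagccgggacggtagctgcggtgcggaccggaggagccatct

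The NEAT1 promoter held 1 G4 motif and 1 GGGCGG, the MALAT1 promoter 5 GGGCGG and the TUG1 promoter 4. All were rich in GC, at 62%, 71.7% and 67.7% of bases. Among the 300-base promoters of all genes, GGGCGG was present in 22.6% of 18702 lncRNA promoters and 52.1% of 20163 protein-coding promoters, and a G4 motif in 13.3% and 28.3%. The presence of these letters is a description of the sequence and not of a bound factor.

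A peak lay in the gene span plus 5 kb at 7 of the 9 genes, in the span itself at the same 7 genes, and over the 5′ end of the span at 5 of them, NEAT1, MALAT1, SNHG1, GAS5 and NORAD. Of all lncRNA genes, 28.5% had a peak in the span plus 5 kb, 19.8% in the span and 10.0% over the 5′ end. Of the 9215 lncRNA genes between 3976 and 81622 bp long, the range of the 9 genes, the shares were 26.9%, 20.6% and 9.04%. Protein-coding genes gave 59.5%, 52.5% and 30.5%. The 9 genes were chosen with these peaks known, so nothing is read from their higher counts. H19 and TUG1 had no peak in the window, and MEG3 had a single peak, inside its span but away from every annotated MEG3 start.

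**Figure D1:**
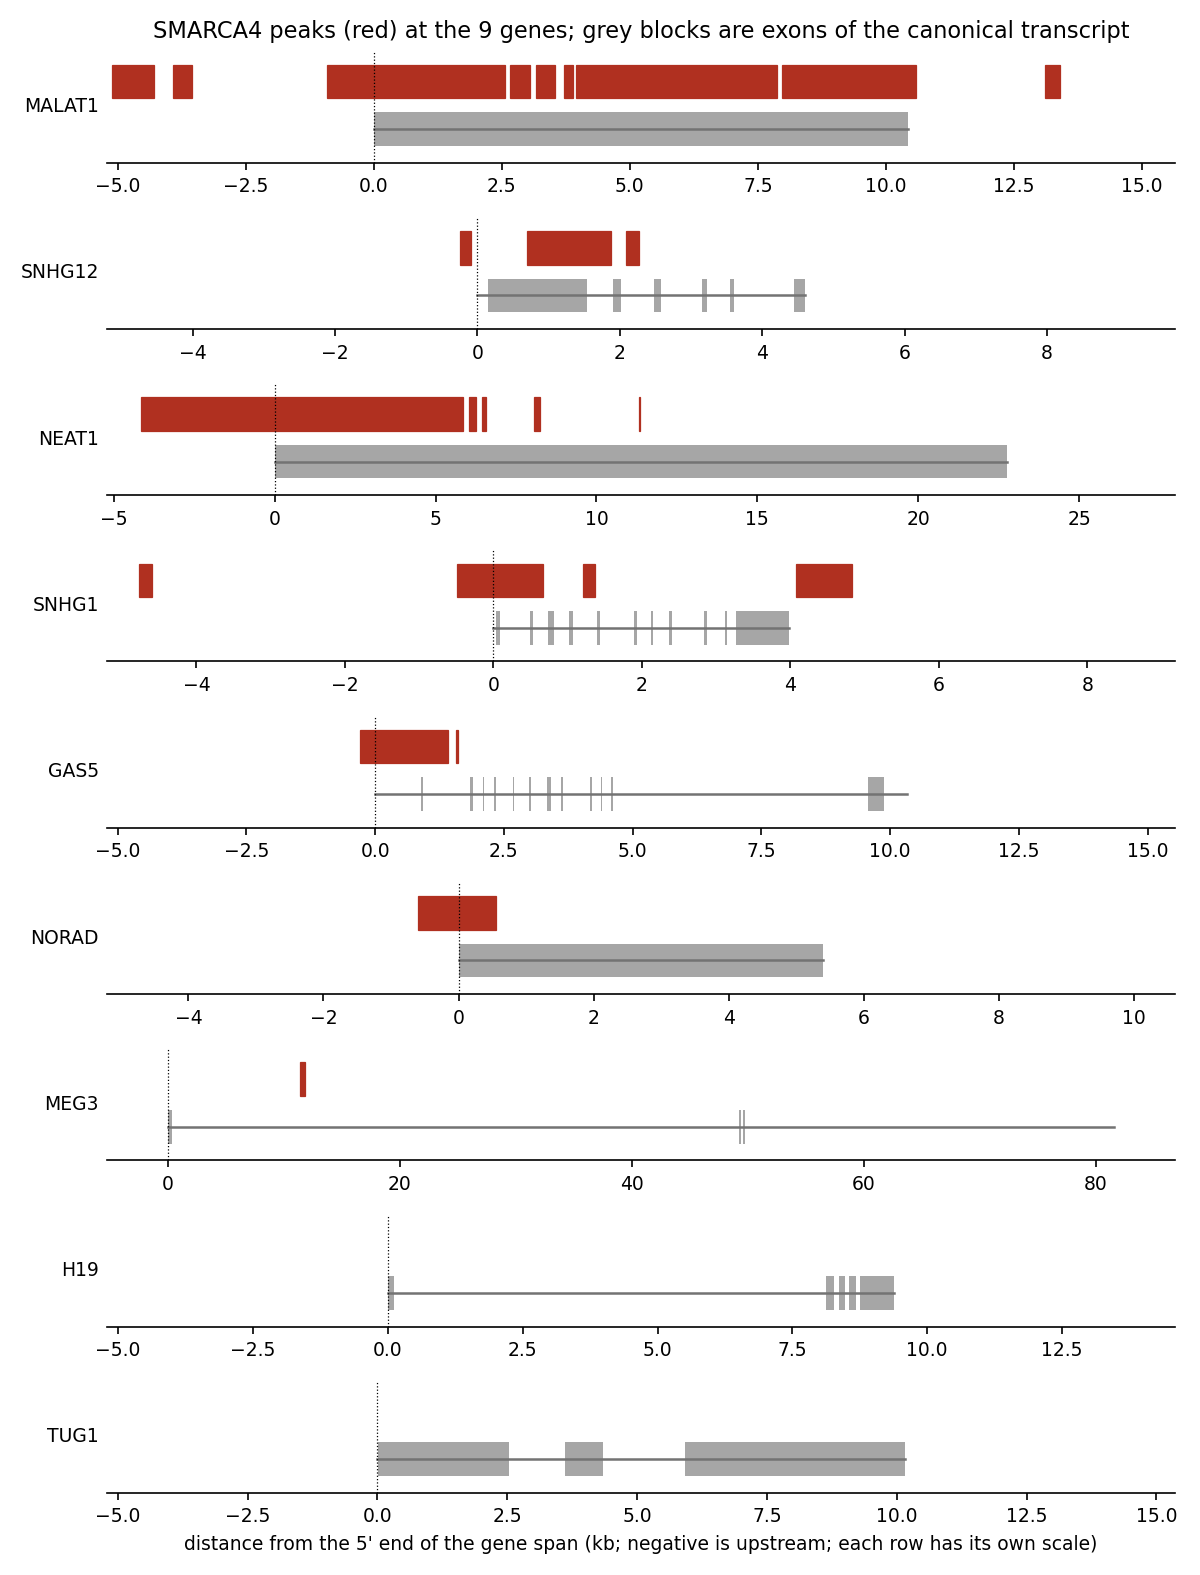
Maps of the 9 genes with the x axis in kb from the 5′ end of the span in the direction of transcription, each row to its own scale and 5 kb beyond the span on both sides. Red bars are SMARCA4 peaks drawn to scale and grey blocks are the exons of the canonical transcript; peaks cover 94.5% of MALAT1, the first 5.849 kb of NEAT1 without a break, and none of H19 or TUG1.

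The share of the gene span under peaks, here called body coverage, ran from 0 to 94.5%, with a median of 14.1% over the 9 genes. MALAT1 was highest at 94.5%, followed by SNHG12 at 29.6%, NEAT1 at 28.2%, SNHG1 at 20.8%, GAS5 at 14.1%, NORAD at 10.3% and MEG3 at 0.611%. In total 20975 of the 158657 bp in the 9 spans were covered, and 77.6% of those bases belonged to NEAT1 and MALAT1. For lncRNA genes of the same length range that had a peak in the span, the median body coverage was 2.54% and the 90th percentile 10.8%. Only 7 of the 9215 genes in this range exceeded 50% and 2 exceeded 90%, namely MALAT1 and its antisense gene TALAM1. The next in order were DLGAP1-AS1 at 78.0%, ENSG00000272849 at 64.0% and LINC01089 at 59.3%, which each overlap a protein-coding gene.

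**Figure D2:**
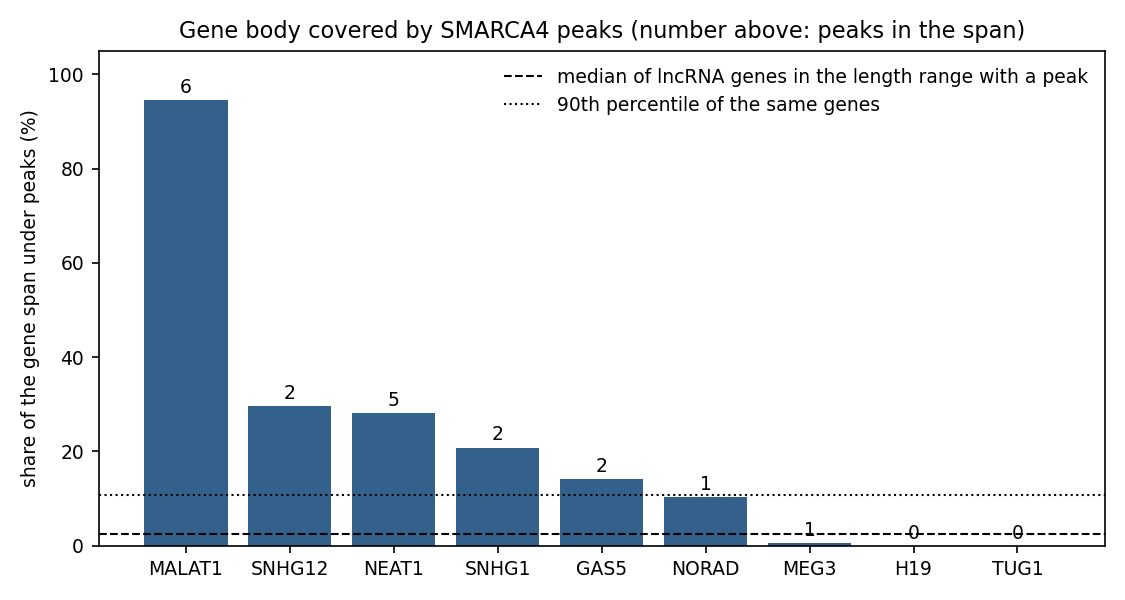
Share of each gene span under SMARCA4 peaks in percent (bars), with the number of peaks that share bases with the span above each bar. The lines give the median (2.54%) and 90th percentile (10.8%) of the 1898 lncRNA genes of the same length range with a peak in the span; MALAT1, SNHG12, NEAT1, SNHG1 and GAS5 lie above the upper line and NORAD just under it.

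NEAT1 (ENSG00000245532, chr11:65190245-65213011, plus strand, 22767 bp) carried the widest peak of the whole list. This peak was 10019 bp wide (chr11:65186076-65196094), against 5970 bp for the next widest, which lay at BRD2 and HLA-DMA, and a median of 368 bp over all peaks. It began 4169 bp upstream of the 5′ end, where it also covered the whole of the unnamed lncRNA gene ENSG00000290057, and ended 5849 bp into the gene. The remaining 4 NEAT1 peaks were narrow, at 221, 197, 135 and 20 bp, and the last of them lay 11328 bp from the 5′ end. The distal part of the gene, beyond 11347 bp, had no peak. This limit rests on the region of 20 bp, and the peak before it ended at 8246 bp.

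NEAT1 is transcribed into a short and a long form from the same promoter, and the long form is the one that paraspeckles need. All 8 annotated short transcripts, 835 to 3684 bp long from first to last base, lay entirely under the wide peak. The long transcript of 22743 bp was covered over 28.1% of its length. The peak thus ran on past the short transcripts, and the binding sites ended in the part of the gene that only the long transcript contains. All 9 annotated starts were in the wide peak.

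Along NEAT1 the wide peak crossed sequence of very different composition. In steps of 1 kb, the GC content fell from 62.2% just upstream of the 5′ end to 36.3% between 3 and 4 kb into the gene, and every step between was fully covered. The observed over expected CpG ratio fell from 0.855 in the kb upstream of the 5′ end to 0.315 between 3 and 4 kb. Steps toward the 3′ end with a GC content of 57.2% and 56.8%, between 21 and 23 kb, had no peak.

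The wide NEAT1 peak held 8 G4 motifs, 0.798 per kb, against 0.889 per kb over all peaks and 1.23 per kb over the 487 peaks of at least 1500 bp. Of the 8, 4 had their G-runs on the strand of the gene and 4 on the opposite strand. As examples, 3 of the 8 are printed with capitals for each G-run, from both strands and both sides of the NEAT1 start: the first lies just upstream at chr11:65190152-65190169 (plus strand), a second upstream of it at chr11:65189924-65189949 (minus strand), and the last within the short form at chr11:65193494-65193517 (plus strand).

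NEAT1 G4 motif just before the 5′ end: GGGcaGGGtcGGGGaGGG

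NEAT1 G4 motif further upstream: GGGGctGGGGGcgtggcGGGcGGGGG

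NEAT1 G4 motif 3249 bp into the gene: GGGaaGGGGatGGGGattgtGGGG

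MALAT1 (ENSG00000251562, chr11:65265111-65275544, plus strand, 10434 bp) showed a different arrangement, with 6 peaks that together covered 9855 bp of its span. These measured 3472, 389, 363, 160, 3920 and 2606 bp in order from the 5′ end, and the gaps between them were only 104, 119, 182, 65 and 109 bp. The first began 908 bp upstream of the 5′ end and the last ran past the 3′ end to 10.58 kb. By width, the 3 long ones ranked 8th, 12th and 45th of all peaks. When peaks at most 500 bp apart were merged, MALAT1 became a single region of 11489 bp, the widest of 24174 merged regions, and the merged NEAT1 region of 10739 bp came next.

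In contrast to NEAT1, coverage at MALAT1 did not decline toward the 3′ end. With the MALAT1 span divided into 10 equal parts, counted from the 5′ end, coverage was lowest in the 4th part (71.9%), the 3rd (83.0%) and the 8th (89.6%), and the remaining parts were at 100%. By bases under peaks MALAT1 ranked 9th of all 64449 annotated genes and 3rd of the 18702 lncRNA genes, while NEAT1 ranked 41st and 12th. The lncRNA genes above MALAT1 were far longer, ENSG00000258344 with 10981 bp under peaks in a span of 68453 bp and STXBP5-AS1 with 9986 bp in 380076 bp. ENSG00000234261 (9673 bp) and MIR3681HG (8810 bp) came next below it.

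Of the 40 annotated MALAT1 starts, 37 lay in a peak (92.5%), and the farthest of the rest was 81 bp from a peak. Since peaks covered 94.5% of the MALAT1 span, nothing particular to starts is read from this count. A cluster of 11 starts lay between 1398 and 1451 bp into the gene, inside the first long peak. Genes on the opposite strand share these bases and cannot be told apart from MALAT1 in a list without strand. TALAM1, the antisense transcript of MALAT1, had a body coverage of 92.9%, and the 5′ end of ENSG00000270117 on the minus strand, 977 bp into MALAT1, was in a peak.

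The 3 long MALAT1 peaks had a lower GC content than the median of 59.5% over the 487 peaks of at least 1500 bp. The peak of 3920 bp was at 38.4%, with 6 of the 487 lower. The peaks of 3472 and 2606 bp were at 46.5% and 46.0%, with 74 and 70 lower. The observed over expected CpG ratio was 0.172 in the peak of 3920 bp, 0.270 in that of 2606 bp and 0.655 in that of 3472 bp, which spans the promoter, against a median of 0.756 over the 487 peaks. In steps of 1 kb the GC content was 57.4% at the start of MALAT1 and 35.8% to 44.3% between 1 and 9 kb, where coverage per step ran from 63.4% to 100%.

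**Figure D3:**
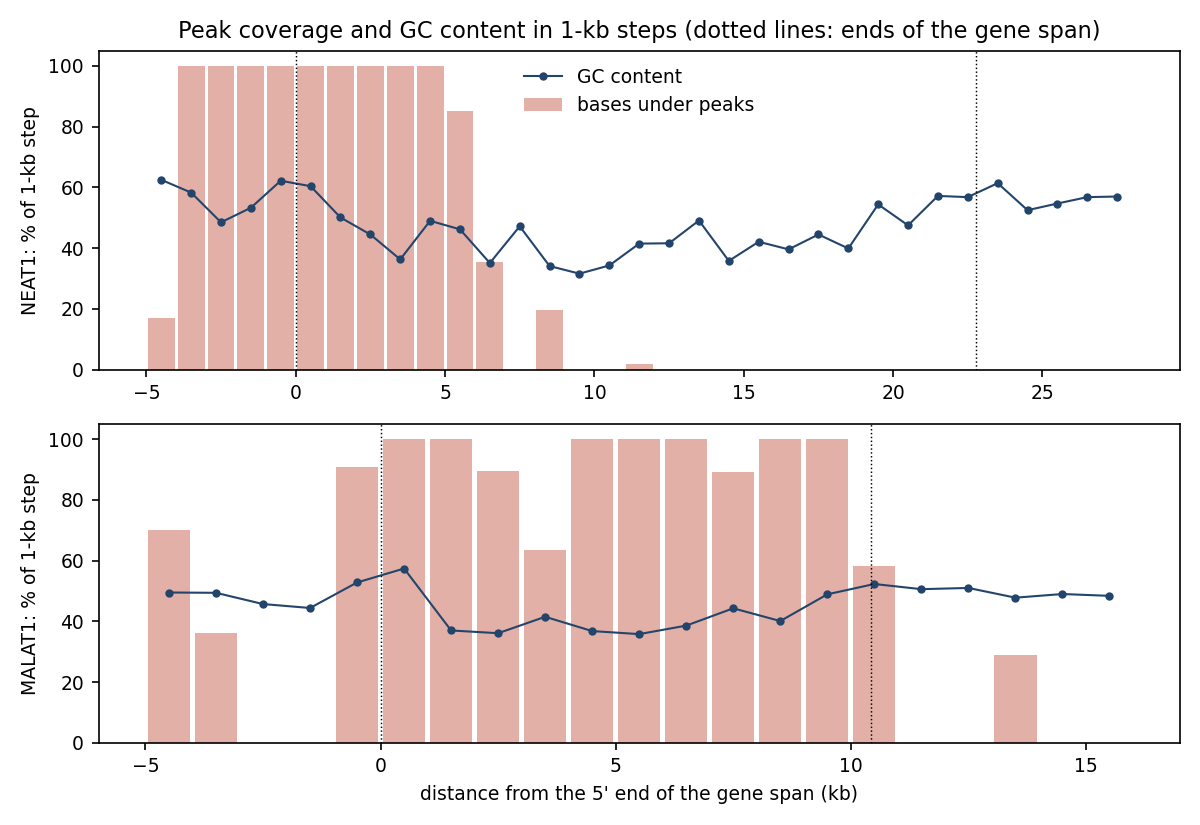
Bases under SMARCA4 peaks (bars, percent of each 1-kb step) and GC content (points, percent) along NEAT1 (top) and MALAT1 (bottom), with the x axis in kb from the 5′ end and dotted lines at both ends of the span. At NEAT1 coverage ends by 11.347 kb although GC content rises again toward the 3′ end, and at MALAT1 it continues through steps with a GC content as low as 35.8%.

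NEAT1 and MALAT1 are neighbours on chromosome 11, 52.099 kb apart and on the same strand. The stretch between them held 12 complete peaks, the widest 1570 bp, and 13.2% of its bases were under peaks. The share of bases under peaks was thus lower between the genes than over MALAT1 (94.5%) or over the NEAT1 span as a whole (28.2%), while the part of NEAT1 beyond 11347 bp had none. At the edge of the 5-kb rule, a MALAT1 peak of 806 bp that began 5104 bp upstream of the gene was kept because it reached into the window, where it held the 5′ end of ENSG00000290061. The closest peaks left out were 355 bp wide and 6061 bp upstream of NEAT1, and 512 bp wide and 6512 bp upstream of SNHG1.

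The snoRNA host genes SNHG12, SNHG1 and GAS5 had a body coverage between 14.1% and 29.6%. Host genes of this class often start with a pyrimidine run, the 5′ terminal oligopyrimidine (5′TOP) start that is also found in ribosomal protein genes. The starts of SNHG1 and SNHG12 with the longest such runs are printed from 30 bases before to 40 bases from the annotated start, with the run in capitals. Both are on the minus strand and both lay inside a SMARCA4 peak: SNHG1 at chr11:62622912-62622981 and SNHG12 at chr1:28908346-28908415.

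SNHG1 start: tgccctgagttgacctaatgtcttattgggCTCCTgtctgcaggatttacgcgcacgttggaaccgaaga

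SNHG12 start: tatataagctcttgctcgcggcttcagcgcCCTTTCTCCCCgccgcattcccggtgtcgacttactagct

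The SNHG12 run was 11 bases long and that of SNHG1 5. Neither printed start is that of the canonical transcript. The SNHG1 start lies 474 bp into the span and belongs to the transcript SNHG1-203, while the canonical SNHG1 transcript begins at 31 bp. The SNHG12 start lies at 1259 bp, and the canonical SNHG12 transcript begins at 146 bp. Runs of at least 5 bases that begin with C were found at 3 of 13 annotated SNHG12 starts and 1 of 26 SNHG1 starts, and at none of the starts of NEAT1, MALAT1, NORAD, H19, MEG3 and TUG1. The starts of GAS5 are not reported in this tally, so it does not say whether GAS5 had such a run. Over all genes they were found at 2.74% of 47667 lncRNA starts and 2.69% of 146567 protein-coding starts.

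SNHG12 (ENSG00000197989, chr1:28905050-28909644, minus strand, 4595 bp) had 3 peaks, and none covered the 5′ end of its span. A peak of 154 bp ended 87 bp upstream of that end. The main SNHG12 peak was 1179 bp wide, from 696 to 1874 bp into the gene, and a peak of 183 bp followed between 2083 and 2265 bp. The main peak lay over most annotated starts: 8 of the 13 annotated starts fell between 1254 and 1509 bp and all 8 were covered, whereas the 3 starts in the first 149 bp were not. Of the genes described here, SNHG12 was thus the only one without a peak over the 5′ end of its span but with one over another annotated start. SNORD99, 4310 bp from the 5′ end, was not in a peak.

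SNHG1 (ENSG00000255717, chr11:62619450-62623425, minus strand, 3976 bp) had 4 peaks in its window, of which 2 shared bases with the span. The widest, 1153 bp, reached from 485 bp upstream to 667 bp into the gene and contained 23 of the 26 annotated starts. The 5′ end of SLC3A2, which encodes the heavy chain of amino acid transporters, lies 51 bp away on the opposite strand and was in the same peak. The binding site cannot be assigned to either gene of this divergent pair. A further peak of 160 bp lay at 1212 to 1371 bp, and peaks of 178 bp upstream and 765 bp beyond the 3′ end were in the flanks.

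GAS5 (ENSG00000234741, chr1:173827697-173838020, minus strand, 10324 bp) had a peak of 1705 bp that reached from 295 bp upstream to 1409 bp into the gene, and one of 42 bp after it. The wide peak contained 10 of the 13 GAS5 starts. ZBTB37, a zinc finger gene on the opposite strand, has its 5′ end 800 bp inside the GAS5 span, in the same peak. A cluster of 6 GAS5 starts lies close to it, 887 to 899 bp into the span, and includes the canonical start at 893 bp. As at SNHG1, the binding site cannot be assigned to either gene. Measured over the canonical GAS5 transcript, body coverage was 6.22% and not 14.1%. Beyond 1605 bp GAS5 had no peak, and the 5′ ends of SNORD78, 3196 bp from that of GAS5, and of GAS5-AS1, 6409 bp from it, were not in one.

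NORAD (ENSG00000260032, chr20:34633540-34638940, minus strand, 5401 bp) has a single annotated transcript and had a single peak. It was 1157 bp wide, from 601 bp upstream to 555 bp into the gene, and covered 10.3% of the span. The rest of the NORAD transcript had no peak. Of the peaks at the 9 genes, the NORAD peak was the densest in G4 motifs, with 4 in its 1157 bp, 3.46 per kb. They are printed with the G-runs in capitals at chr20:34638985-34639008 and chr20:34638584-34638611 (plus strand, opposite to the gene), and chr20:34638775-34638804 and chr20:34638511-34638537 (minus strand, that of the gene).

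NORAD G4 motif just upstream of the 5′ end: GGGGGtGGGGaatGGGGaatGGGG

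NORAD G4 motif 329 bp into the gene: GGGtcGGGagacccGGGtgccggcGGGG

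NORAD G4 motif 136 bp into the gene: GGGccggcGGGtgaactGGGGGGccccGGG

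NORAD G4 motif 403 bp into the gene: GGGcggcgctGGGcgtggtGGGccGGG

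The same peak contained the 5′ end of ENSG00000234139, an unnamed lncRNA gene that starts 473 bp away on the opposite strand. Peaks at MALAT1, SNHG1, GAS5 and NORAD thus each held the 5′ end of a gene on the other strand, and those at NEAT1, SNHG12 and MEG3 did not.

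**Figure D4:**
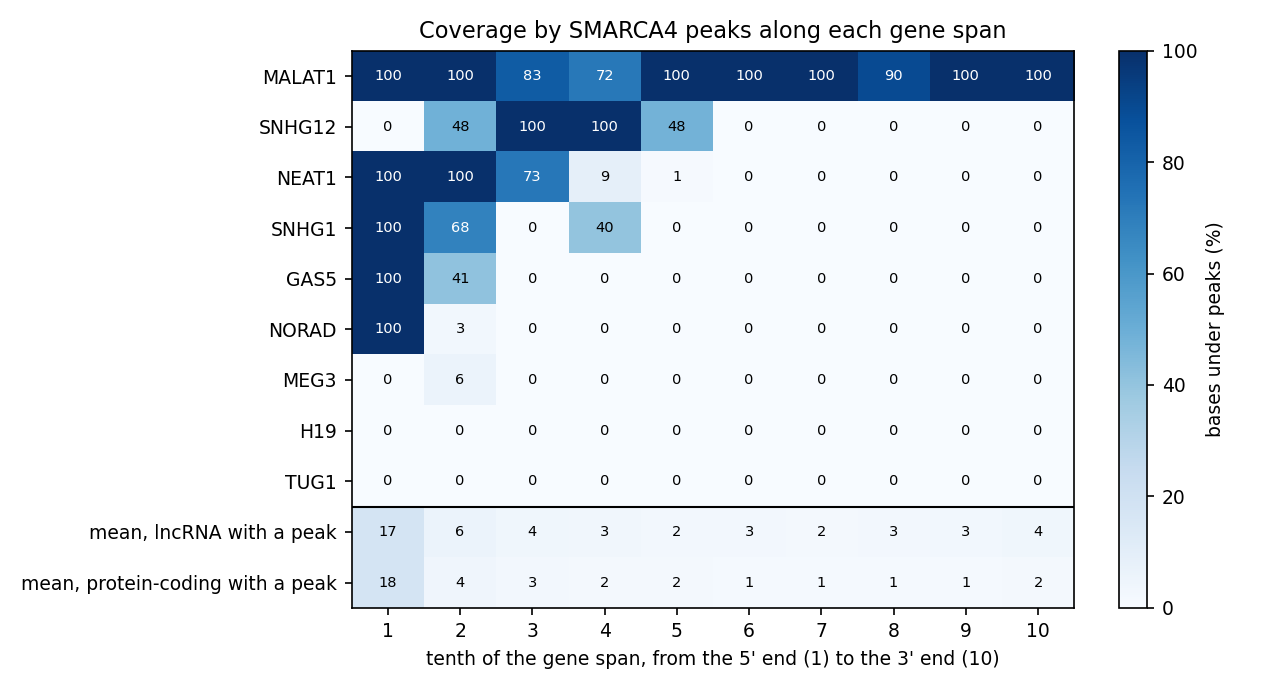
Share of bases under SMARCA4 peaks (percent, color and rounded number) in each of 10 equal parts of the gene span from the 5′ to the 3′ end. The bottom lines give the mean over the 1898 lncRNA and 7312 protein-coding genes of the same length range with a peak in the span, which is highest in the first part at 17.5% and 17.6%; among the 9 genes only MALAT1 is covered beyond the 5th part.

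Read by place along the gene, NEAT1, SNHG1, GAS5 and NORAD were fully covered in the first of the 10 parts of their span, and SNHG12 and MEG3 were not covered there. Over lncRNA genes of the same length range with a peak in the span, the mean coverage was 17.5% in the first part, 6.17% in the 2nd and 3.58% in the last. In these lncRNA genes too the mean was highest in the first part, and MALAT1 did not show such a decline. The difference was not tested. Over all annotated starts, 89 of 180 at the 9 genes were in a peak (49.4%), against 12.3% at lncRNA genes and 24.3% at protein-coding genes. MALAT1, covered over 94.5% of its span, gave 37 of the 89 starts in a peak and 40 of the 180. Starts of a gene lie close together and are not independent of each other.

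The imprinted genes and TUG1 had little or no SMARCA4 binding in this list. MEG3 (ENSG00000214548, chr14:101245747-101327368, plus strand, 81622 bp) had 1 peak of 499 bp (chr14:101257133-101257631), in an intron between 11386 and 11884 bp from the 5′ end. None of its 34 annotated starts was in a peak: 33 of them lie between 46.688 and 78.214 kb into the span, and these were at least 14.068 kb from the nearest peak. Nor was there a peak at the 5′ ends of MIR493HG, MIR770, MIR2392 and ENSG00000258663 inside the MEG3 window. The central 300 bases of the MEG3 peak, chr14:101257232-101257531 on the plus strand, are shown because this was the sole binding site at an imprinted member. Capitals mark AGATAA (the letters bound by GATA factors), a G4 motif with its G-runs on the minus strand, and CAGCTG (an E-box).

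MEG3 peak: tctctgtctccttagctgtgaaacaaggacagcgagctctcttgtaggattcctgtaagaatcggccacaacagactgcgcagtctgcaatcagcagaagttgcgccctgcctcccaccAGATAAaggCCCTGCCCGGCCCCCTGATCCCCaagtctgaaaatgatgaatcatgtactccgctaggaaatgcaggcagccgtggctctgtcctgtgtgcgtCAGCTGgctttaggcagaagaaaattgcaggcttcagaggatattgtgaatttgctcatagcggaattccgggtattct

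AGATAA on either strand was present in 28.8% of windows of 300 bases centred on each peak of the list, flanking bases included where the peak was narrower, and CAGCTG in 19.1%. A G4 motif was present in 18.9% of these windows. These letters were thus common in the list as a whole.

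H19 (ENSG00000130600, chr11:2016396-2025782, minus strand, 9387 bp) lay in a stretch of 306.664 kb without a peak. The nearest peak was 15.83 kb beyond the 3′ end, and on the upstream side the distance was 281.447 kb. This stretch also held the 5′ ends of IGF2, the imprinted growth factor gene next to H19, and of INS, INS-IGF2, TH, ASCL2 and ENSG00000284779. It was the 68th longest of 1602 peak-free stretches on chromosome 11, whose median was 12.8 kb. The other imprinted neighbours listed, DLK1 and RTL1 beside MEG3, likewise had no peak in the span plus 5 kb, so 0 of 3 imprinted neighbours had one, beside 59.5% of all protein-coding genes. The 5′ end of LINC01219 in the H19 window was not in a peak either.

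TUG1 (ENSG00000253352, chr22:31365231-31375381, plus strand, 10151 bp), which is classed as protein-coding in this annotation, lay in a stretch of 202.946 kb without a peak, the 30th longest of 609 on chromosome 22. The nearest peak was 87.486 kb from its 5′ end. The 5′ ends of MORC2 and SMTN lay in the same stretch, as did those of ENSG00000269972 and ENSG00000269987 on the minus strand. MORC2 is a chromatin ATPase gene that starts 471 bp away on the opposite strand, and SMTN encodes a smooth muscle protein. The TUG1 promoter printed above resembled that of MALAT1 in GC content (67.7% and 71.7%) and in observed over expected CpG (0.840 and 0.893), and yet no region was called there.

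To place this, genes were counted whose promoter, taken at the 5′ end of the span, had a GC content of at least 60% and an observed over expected CpG ratio of at least 0.75, limits that were chosen after the TUG1 values were seen. Of 9419 such genes, 72.9% had a peak in the span plus 5 kb and 50.9% over the 5′ end. Among the 9 genes, NEAT1, MALAT1, SNHG1 and TUG1 met these limits, and all but TUG1 had a peak over the 5′ end. A promoter of this kind without a peak was therefore common. Absence from the list says that no region was called in at least 2 of the 3 replicates, and the ChIP signal below that threshold was not analysed here.

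The 25 peaks at these genes were spread to both ends of the width range. A listed region is an overlap in at least 2 of the 3 replicates, so its width need not be that of a peak called in any of them. The narrowest regions, of 20 bp at NEAT1 and 42 bp at GAS5, were shorter than the fragments of 150 to 400 bp. The median width of the 25 was 363 bp, against 368 bp for all peaks. However, 9 of the 25 were narrower than 200 bp (36%, against 16.4% of all peaks), and 8 were at least 1000 bp wide, against 6.78% of all peaks. Peaks of at least 1500 bp numbered 5 at these genes, at NEAT1, MALAT1 and GAS5, and 487 in the whole list (1.72%). The narrow ones were at NEAT1, MALAT1, SNHG1, GAS5 and SNHG12, each of which also had a peak of at least 1000 bp.

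**Figure D5:**
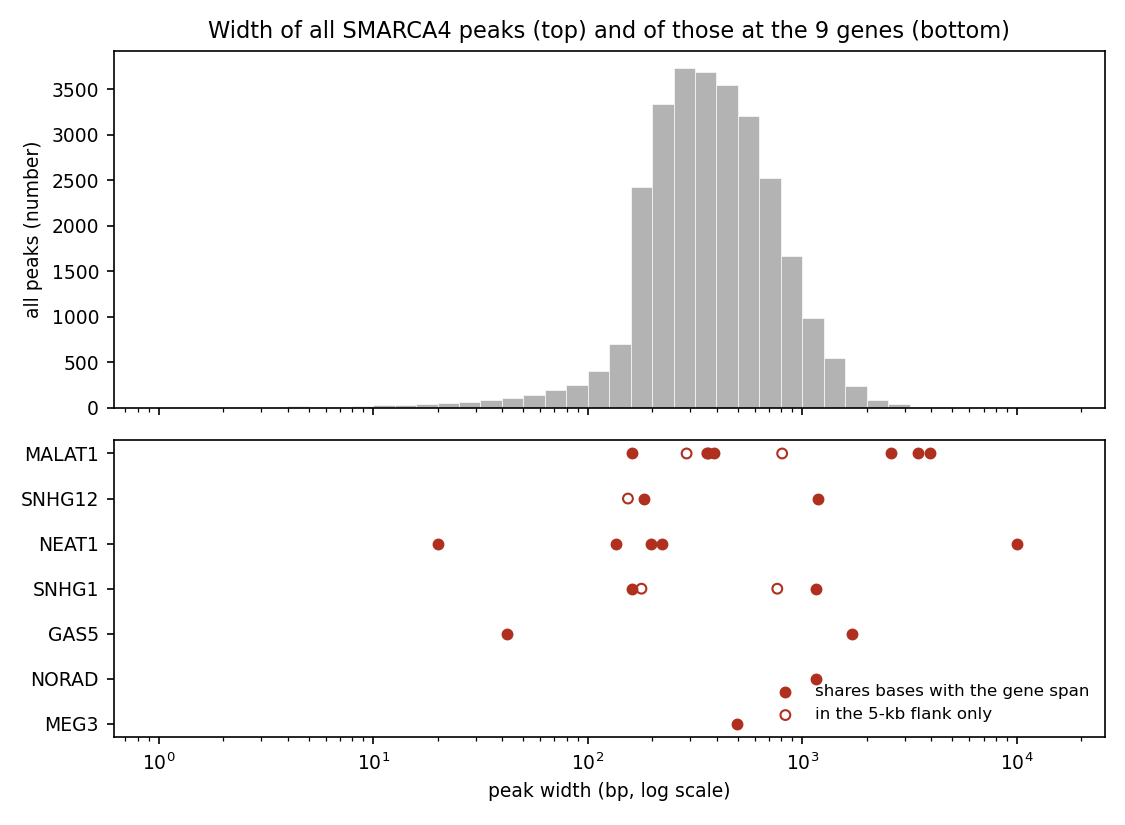
Widths of all 28265 SMARCA4 peaks (top, number of peaks per bin) and of the 25 peaks at the 9 genes (bottom, a point for each peak), on a log scale in bp. Filled points share bases with the gene span and open points lie in the flanks only; the NEAT1 peak of 10019 bp is at the right end of the axis and the narrowest, also at NEAT1, is 20 bp wide.

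In base composition the 25 peaks were less rich in GC than the list, with a median GC content of 47.1% against 53.2% and a median observed over expected CpG of 0.275 against 0.423. NEAT1 and MALAT1 gave 5 and 9 of the 25, so these medians rest largely on their peaks. By gene, the widest peak had a GC content of 60.8% at NORAD and SNHG12, 58.8% at GAS5 and 54.8% at SNHG1. It was 51.1% at NEAT1, 47.7% at MEG3 and 38.4% at MALAT1. A G4 motif was present in 7 of the 25 whole peaks (28%, against 23.4% of all peaks), and in the 300 bases centred on the peak for 3 of the 25 (12%, against 18.9%), so the order of the shares depended on the window. The 7 peaks were at NEAT1, MALAT1, GAS5, NORAD and MEG3, and none was at SNHG1 or SNHG12. Per base, the density was 0.664 per kb at these genes against 0.889 per kb over all peaks. Density also differed with width, and for peaks of at least 1000 bp it was 0.754 per kb at these genes against 1.24 per kb over all. G4 motifs were also present where no peak was called: the H19 span held 9 (0.959 per kb) and the MEG3 span 35, of which 1 was in its peak.

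Short motifs were counted on both strands over the whole of each peak. AGATAA was present in 11 of the 25 peaks (44%, against 32.6% of all peaks), and CAGCTG in 10 (40%, against 25.0%). GGGCGG was present in 8 (32%, against 39.3%), and TGACTCA or TGAGTCA, the letters of AP-1, in 4 (16%, against 17.3%). CCGGAAGT, the letters of ETS factors, was in 2 (8%, against 3.52%) and CACGTG, another E-box, in 3 (12%, against 9.90%). These shares rise with the width of a peak: of all peaks of at least 1000 bp, 46.4% held AGATAA and 78.0% GGGCGG.

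In windows of equal length, 300 bases centred on each peak, AGATAA was present for 7 of the 25 peaks (28%, against 28.8% of all peaks), CAGCTG for 5 (20%, against 19.1%) and GGGCGG for 5 (20%, against 36.5%). The AP-1 letters were present for 1 (4%, against 14.8%), CCGGAAGT for 2 (8%, against 2.64%) and CACGTG for 2 (8%, against 6.94%). Such a window takes in flanking bases where the peak is narrower than 300 bp, as were 11 of the 25 peaks (44%) and 38.2% of all peaks, so a match there can lie outside the called region. With 25 peaks, of which neighbours share a gene, these shares rest on few regions and the differences were not tested.

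Related genes were listed to set these members in their groups. Of the 26 other genes named SNHG with a number, 19 had a peak in the span plus 5 kb, 19 in the span and 16 over the 5′ end, with a median body coverage of 2.88%. Over all lncRNA genes these shares were 28.5%, 19.8% and 10.0%, with a median body coverage of 0, and since the lists were chosen with earlier results known nothing is read from the difference. SNHG12, SNHG1 and GAS5 were above this median. The highest was SNHG25, at 94.6% of a gene of only 540 bp, and 7 host genes had none, SNHG10, SNHG14, SNHG18, SNHG22, SNHG27, SNHG28 and SNHG31. Of 24 other known non-coding RNA genes, of which RMRP and RN7SK are not classed as lncRNA in the annotation, 21 had a peak in the span plus 5 kb, 21 in the span and 15 over the 5′ end, with a median body coverage of 1.51%, beside the same shares over all lncRNA genes (28.5%, 19.8% and 10.0%). The short genes RMRP and TERC, the RNA parts of RNase MRP and telomerase, were covered at 100%, and HOTAIR, HOTAIRM1 and MIR155HG had none.

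The genes of proteins that work with these RNAs also carried SMARCA4 peaks, mostly over a small part of their span. Over all protein-coding genes, 59.5% had a peak in the span plus 5 kb, 52.5% in the span and 30.5% over the 5′ end, and the median body coverage was 0.138%. These lists are short and were chosen with earlier results known, so they are not compared with those shares by a test. All 9 genes of paraspeckle proteins, the partners of NEAT1 RNA, had a peak in the span plus 5 kb, 8 in the span and 5 over the 5′ end, with a median body coverage of 0.931% and NUDT21 lowest at 0. All 5 genes of nuclear speckle proteins had a peak over the 5′ end, with a median of 6.49%, from 1.96% at SON to 37.7% at SRSF2. For snoRNA-binding proteins, 8 of 8 had a peak in the span plus 5 kb and 6 over the 5′ end, with a median of 3.50%, NOP10 being highest at 5.89% and FBL at 0. RBMX, a partner of NORAD, had a body coverage of 2.46%. These protein-coding genes had a lower body coverage than MALAT1.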

How the data were processed

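SMARCA4 was measured by ChIP-seq in K562 cells in 3 ChIP and 3 input libraries. In the processing by the authors, cutadapt removed adapters, BWA placed reads on hg19, Picard and SAMtools took out duplicates, MACS2 called peaks per replicate over input, and bedtools kept what overlapped in at least 2 of the 3 replicates. The deposited values are positions in bp, with no read count, height or score, so the depth behind each region is unknown and no interval over reads was computed.

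Gene spans, transcripts and starts came from GENCODE 44 lifted to GRCh37, and sequences from the GRCh37 genome, with positions counted from 1. A peak counted for a gene when at least 1 bp was shared. Body coverage is the share of the span under peaks. G4 motifs were searched on both strands of each peak as non-overlapping matches. Promoter windows held 250 bases before and 50 after a start. Overlaps, coverage and motif counts were computed in Python 3.11.15 with numpy 2.4.6, pandas 2.3.3, pysam 0.24.0 and matplotlib 3.10.9, and were tested on simulated data first.

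The members and the lists of related genes were chosen with earlier results of these data known. Described by name were the 9 members, genes with a 5′ end in their windows, the lncRNA genes with most bases or the highest share under peaks, and the highest and lowest of each list. The genes listed at the broadest peak after NEAT1 and the starts grouped in clusters were chosen after their values were seen. RPPH1 was listed and not matched by name. Some genes of these lists and some sequences are not reported here. No test was made. Alternatives changed the window, the minimum peak width, merging, the gene model, the definition of the start, the gene set and the motif.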

Additional observations from a re-analysis of the deposited data

How the results depend on the processing

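The number of peaks at the 9 genes was 25 with 5-kb flanks, 19 without flanks and 32 with 10-kb flanks. It was 16 with peaks of at least 200 bp and 15 with peaks at most 500 bp apart merged. The number of genes with a peak in the body was 7, or 6 when the midpoint of the peak had to lie in it, and the number with a peak over the 5′ end was 5, or 6 with any annotated start or a peak within 1 kb. Member peaks with a G4 motif numbered 7 in whole peaks (28%, against 23.4% of all peaks), 9 with loops of up to 12 bases (36%, against 34.2%) and 3 in the central 200 bp (12%, against 13.5%), where fewer bases were searched. The share of lncRNA genes with a peak in the window was 28.5%, and became 19.8% without flanks, 33.7% with 10-kb flanks, 26.7% with peaks of at least 200 bp, 16.4% for the 13256 genes with no coding start within 5 kb, and 26.9% in the length range. Body coverage changed by over 1.5 times in 2 cases, both with the canonical transcript: GAS5 from 14.1% to 6.22% and MEG3 from 0.611% to 1.00%. Smaller changes also occurred. With peaks of at least 200 bp, SNHG12 fell from 29.6% to 25.7% and NEAT1 from 28.2% to 26.7%, so their order was reversed. SNHG1 fell from 20.8% to 16.8%. With near peaks merged, SNHG12 at 34.2% stayed above NEAT1 at 29.8%.

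No paired analysis was possible because the list used here merges the ChIP replicates. From this merged list no replicate was left out, and the reads of single replicates were not analysed here. Without heights, a region just under the threshold cannot be told from one with no signal. The read depth of ChIP and input libraries over these genes was not analysed here.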
